A study of Mus musculus with 2 samples.

Results

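The sites described here are the FoxO3 binding peaks at the genes for FoxO3 itself (Foxo3) and for its relative FoxO1 (Foxo1). They were taken by position only, on the mouse build mm9: every peak of either deposited list whose summit lay in the gene or within 20 kb of it, with Foxo3 at about chr10:41901600-41996600 and Foxo1 at about chr3:52072200-52154100. This gave 14 of the 45958 peaks deposited, 11 at Foxo3 and 3 at Foxo1. All 14 came from the myotube list of 45457 peaks, and 0 came from the myoblast list of 501.

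The series measured FoxO3 occupancy by ChIP-seq in C2C12, a mouse myoblast line that can fuse into myotubes. The myoblast sample was labelled 24 hours ahead of the switch to differentiation medium (hour -24) and the cells were grown in fetal bovine serum. The myotube sample was labelled hour 72 in differentiation medium with horse serum. Both came from the same line, carried no label of an introduced allele and were precipitated with the same antibody to Foxo3. Each condition had 1 library, so no value below has a replicate error and no difference between the conditions was tested. The lists hold no expression values, so the labelled cell type was not checked against marker genes.

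FoxO proteins are forkhead transcription factors that insulin and growth factors hold in check through Akt, which phosphorylates them and keeps them out of the nucleus. In skeletal muscle FoxO1 and FoxO3 are best known for switching on genes of protein breakdown and of fasting metabolism. FoxO factors are also known to act on the transcription of FoxO genes, so binding of FoxO3 at Foxo3 would be a site of possible self regulation, and at Foxo1 of possible cross regulation. Peaks show where the protein was recovered, not whether the gene responded.

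The sequences just before the 2 gene starts are shown because the promoter is where a direct effect of FoxO3 on its own gene, or on Foxo1, would usually be looked for first. They are the 250 bases upstream of each start in RefSeq (GRCm38.p6, a different build from the peak lists, so these coordinates are not to be set beside mm9 positions). The Foxo3 stretch is chr10:42276696-42276945 on the minus strand and the Foxo1 stretch is chr3:52268087-52268336 on the plus strand, each written in the direction of transcription. Capitals mark AAACA, the shortest form of the forkhead core, and GGGCGG, the GC box, on either strand.
Foxo3: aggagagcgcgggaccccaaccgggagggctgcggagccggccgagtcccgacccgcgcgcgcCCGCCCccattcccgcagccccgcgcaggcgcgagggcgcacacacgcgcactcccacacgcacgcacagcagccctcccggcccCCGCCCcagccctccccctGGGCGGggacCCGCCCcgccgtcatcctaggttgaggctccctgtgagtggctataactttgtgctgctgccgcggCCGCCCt
Foxo1: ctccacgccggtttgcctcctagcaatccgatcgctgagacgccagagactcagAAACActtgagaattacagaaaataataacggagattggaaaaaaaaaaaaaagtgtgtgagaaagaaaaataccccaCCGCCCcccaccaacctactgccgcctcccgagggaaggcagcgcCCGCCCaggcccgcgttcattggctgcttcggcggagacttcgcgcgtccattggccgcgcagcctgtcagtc

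Neither stretch held the full forkhead site GTAAACA, whose reverse complement is TGTTTAC, or its variant GTAAATA, whose reverse complement is TATTTAC. Among the 32851 promoter stretches of this length in the table, 3.17% held GTAAACA and 2.73% held GTAAATA, so most promoters lacked both. The short core AAACA (or TGTTT on the other strand) is contained in GTAAACA and was searched after the sequences had been seen. It occurred at 1 place in Foxo1, starting 196 bases before the start, and at 0 places in Foxo3. It was in 46.4% of all stretches. The GC box GGGCGG (or CCGCCC on the other strand), also searched afterwards, occurred 5 times in Foxo3 and 2 times in Foxo1, and was in 32.7% of all stretches. Both were rich in CpG. G and C made up 76.4% of the Foxo3 stretch and 56.0% of the Foxo1 stretch against a median of 52.4%, and the observed over expected CpG ratio was 0.879 and 1.04 against a median of 0.374. A match or its absence describes these letters only.

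No peak was listed at either gene start. In myotubes 0 summits lay within 1 kb of the Foxo3 start and 0 within 1 kb of the Foxo1 start, where a count of 0 allows up to 3. A stretch of 2 kb would hold 0.0355 peaks at the mean density of the list, and 3.14% of all consecutive windows of 2 kb held a peak, so 0 is also what most stretches of that length held. These windows are not gene starts. The share of all gene starts with a peak was not examined, as no mm9 annotation was used. At Foxo3 the nearest summit was 1.2 kb upstream and the next 1.5 kb upstream. At Foxo1 the nearest summits were 21.7 kb upstream, outside the window, and 63.6 kb into the gene. The gene starts are those of the spans given above, which are rounded. The spans are 95 and 81.9 kb long, and RefSeq gives the genes 94.9 and 81.8 kb in GRCm38.p6. Similar lengths do not fix the position of a start, which was not checked on mm9. The pair just beyond 1 kb of Foxo3 is the most sensitive to a shift of the start.

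**Figure D1:**
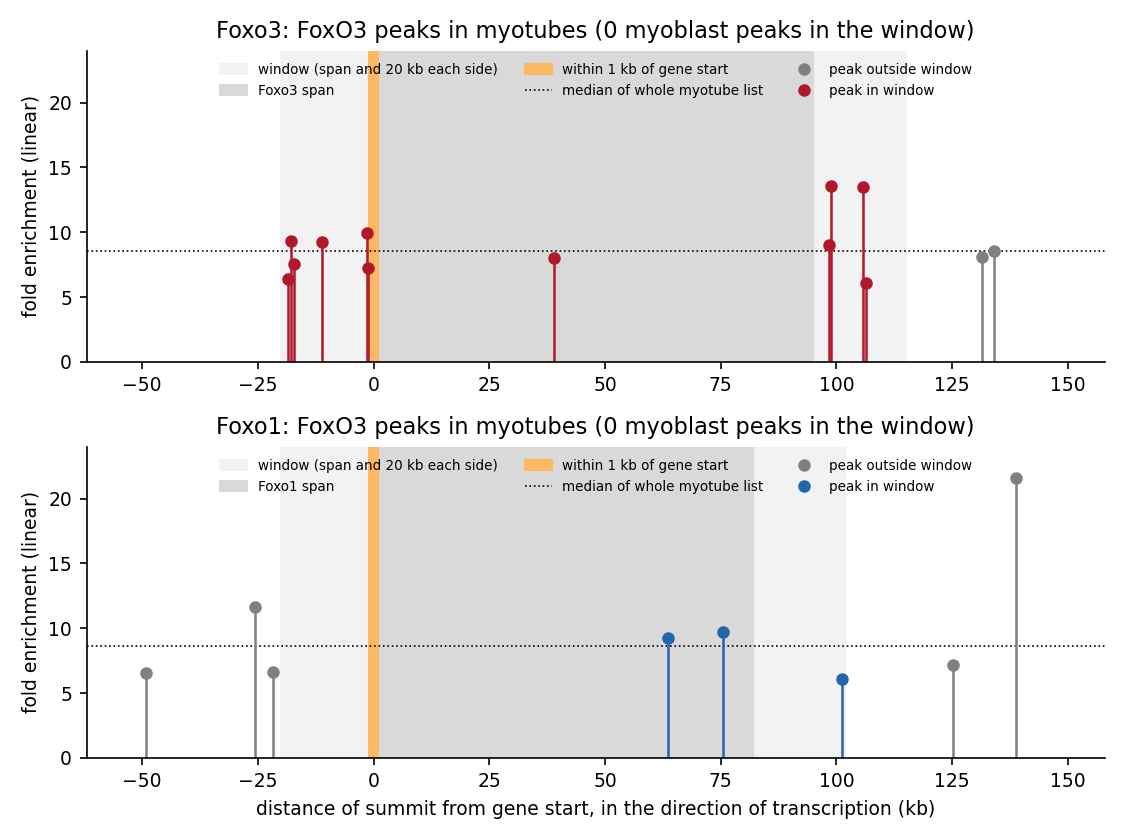
FoxO3 peaks of the myotube list around Foxo3 (top) and Foxo1 (bottom): the x axis is the distance of each summit from the gene start in the direction of transcription in kb, and the y axis is the authors' linear fold enrichment. Coloured stems are the 11 and 3 peaks in the windows, grey stems are peaks outside them, and the dotted line is the list median of 8.59. The Foxo3 peaks stand on both sides of the gene with 1 inside it, and neither gene has a stem in the band within 1 kb of its start.

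Fold enrichment here is the authors' linear ratio of the read pileup at the summit to the local background, and the −log10 q-value is their caller's significance for the peak. The whole-number pileup and the background behind each pair of values were recovered from the fold and the p-value, and total depth is unknown. Values are used to describe and rank peaks within a list. A percentile is the share of the myotube list with a lower value.

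The sites closest to the Foxo3 start formed a pair. The peak at chr10:41997753-41997914 (summit 1.2 kb upstream) had a fold of 7.27, a −log10 q-value of 4.44 and 11 reads over a background of 1.51. Its partner at chr10:41998059-41998180 (1.5 kb upstream) had a fold of 9.91, a −log10 q-value of 8.07 and 15 reads over 1.51. Their summits were 291 bp apart. The nearer peak was among the weaker of the list, at the 29.7th percentile of fold and the 12.3rd of −log10 q-value. The farther one was at the 62.4th and 46.0th.

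The rest of the Foxo3 upstream flank held 4 peaks. The peak 11.1 kb upstream, at chr10:42007584-42007759, had a fold of 9.25 with 14 reads over 1.51. Another 3 stood together between 17.3 and 18.5 kb upstream. Of these, chr10:42014147-42014549 was the widest peak at either gene, at 403 bp, with a fold of 9.35, a −log10 q-value of 15.59 and 29 reads over 3.10. The peak beside it at chr10:42013659-42013998 had a fold of 7.57 with 21 reads over 2.77. The outermost, chr10:42015022-42015143, had a fold of 6.43 with 11 reads over 1.71 and the smallest width in the list. The upstream flank therefore ran from the 9.11th percentile of −log10 q-value at the outermost peak to the 77.1st at the widest.

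A single peak lay inside the Foxo3 span. It was at chr10:41957446-41957622, 39.1 kb after the start and 55.9 kb before the end, with a fold of 7.98, a −log10 q-value of 15.86 and 33 reads over a background of 4.14. It had the most reads and the highest −log10 q-value of the 14, but a fold at the 41.7th percentile. Its background was 2.74 times the most frequent background of the list (1.51 reads) and at the 94.2nd percentile, and the fold divides by it. Background over 3 times that value is called raised here. The peak fell just short of this, and 0 of the 14 were raised, where 3.58% of the myotube list was. Exon positions on mm9 were not used here, so the site is given as inside the gene and not as intronic. RefSeq places a long noncoding RNA gene, Gm38485, within the bounds of Foxo3, and whether the peak falls in it was not examined.

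The strongest sites by fold lay past the 3′ end of Foxo3. The peak at chr10:41897647-41897991, 3.8 kb beyond the end, had a fold of 13.54, a −log10 q-value of 14.18 and 21 reads over 1.55. The peak at chr10:41890659-41890879, 10.8 kb beyond the end, had a fold of 13.50, a −log10 q-value of 15.57 and 23 reads over 1.70. They were at the 83.1st and 82.9th percentile of fold. Each had a weaker companion. Beside the first, chr10:41898145-41898441 (3.4 kb beyond the end) had a fold of 9.02 with 14 reads over 1.55. Beside the second, chr10:41890141-41890262 (11.4 kb beyond) had a fold of 6.10 with 10 reads over 1.64, the fewest reads and the lowest −log10 q-value (3.36) at either gene.

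Foxo1 had fewer sites, and those inside the gene lay toward its 3′ end. The peak at chr3:52135775-52135902, 63.6 kb after the start, had a fold of 9.25, a −log10 q-value of 7.10 and 14 reads over 1.51. The peak at chr3:52147533-52147804, 75.4 kb after the start and 6.5 kb before the end, had a fold of 9.67, a −log10 q-value of 13.67 and 25 reads over 2.59. The third, at chr3:52173343-52173464, 19.3 kb past the end, had a fold of 6.06, the lowest of the 14, with 13 reads over 2.15. The inner peaks were close to the middle of the list by fold (55.8th and 60.0th percentile) and the outer one was low (14.5th). RefSeq places a long noncoding RNA gene, Gm30125, within 20 kb of Foxo1. No peak of the list fell in the 85.3 kb between the summit 21.7 kb upstream of Foxo1 and the summit 63.6 kb inside it, a stretch that takes in the start and 77.7% of the gene. Gaps between neighbouring summits had a median of 11.5 kb, and 87.9% were shorter than this one.

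By fold the 14 sites were near the middle of the myotube list, and by reads and −log10 q-value their medians were below those of the list. Their median fold was 9.13 (lowest 6.06, highest 13.54), against 8.59 over the list with quartiles of 6.92 and 11.60, and 8 of the 14 were above the list median. By gene the median was 9.02 at Foxo3 and 9.25 at Foxo1. A −log10 q-value of at least 10 was reached by 4 of 11 peaks at Foxo3 and 1 of 3 at Foxo1, where 41.4% of the list reached it. The smallest width of the list, 122 bp, was shared by 3 of the 11 and 1 of the 3, and by 12% of the list. Median pileup was 14.5 reads, against 18 over the list, and the median −log10 q-value was 7.58, against 8.51.

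**Figure D2:**
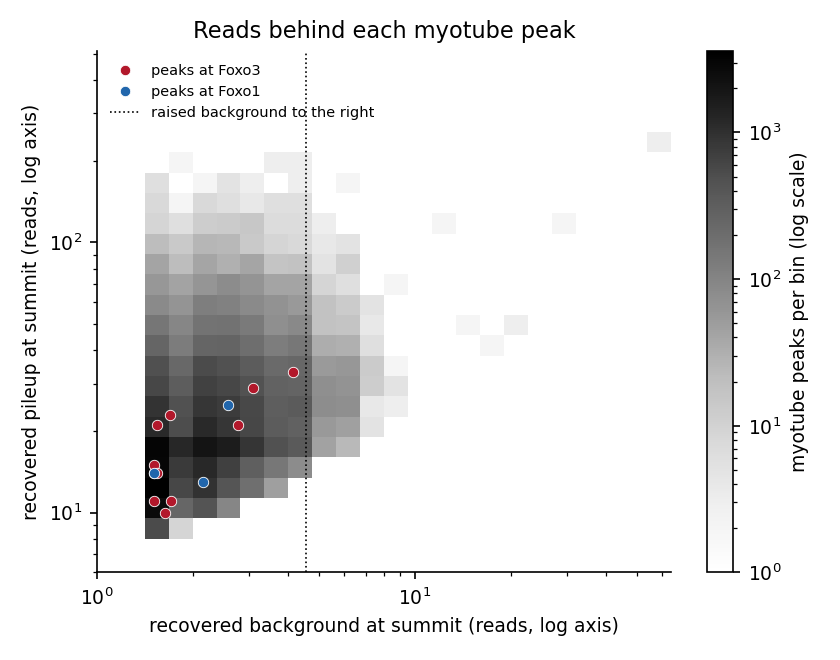
Recovered read pileup (y axis, reads, log scale) against recovered background (x axis, reads, log scale) at the summit of each myotube peak. Grey bins count the peaks of the whole list (20 peaks beyond the axes are not drawn), coloured points are the 11 peaks at Foxo3 and the 3 at Foxo1, and the dotted line is 3 times the most frequent background. All 14 points lie left of that line, and the Foxo3 point nearest to it is the peak inside the gene, with 33 reads over 4.14.

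By number of peaks, Foxo3 was denser than the list mean, by an amount that depends on how close summits and the flank are counted, and the Foxo1 interval took in the list mean. The Foxo3 window of 135.0 kb held 11 myotube peaks, or 8.15 per 100 kb (Poisson interval 4.07 to 14.6), 4.59 times the list mean of 1.77 per 100 kb (2.29 to 8.22). Of all consecutive windows of that length, 4.24% held at least 11 peaks. These windows were not limited to genes, and 47.5% of them held 0 peaks. With a flank of 10 kb the ratio was 2.45. With summits within 1 kb joined to 1 site, added after seeing the data, the window held 6 sites, 2.88 times the list mean (1.06 to 6.28), and 12.4% of windows held at least 6. The Foxo1 window of 121.9 kb held 3, or 2.46 per 100 kb (0.508 to 7.19), 1.39 times the list mean (0.286 to 4.05), and 27.4% of windows of its length held at least 3. The intervals at the genes overlap and cover counting error only, and the difference between the genes was not tested. Chromosome 10 as a whole was denser than the list, at 2.57 per 100 kb. Against that value the Foxo3 window was 3.18 times as dense.

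**Figure D3:**
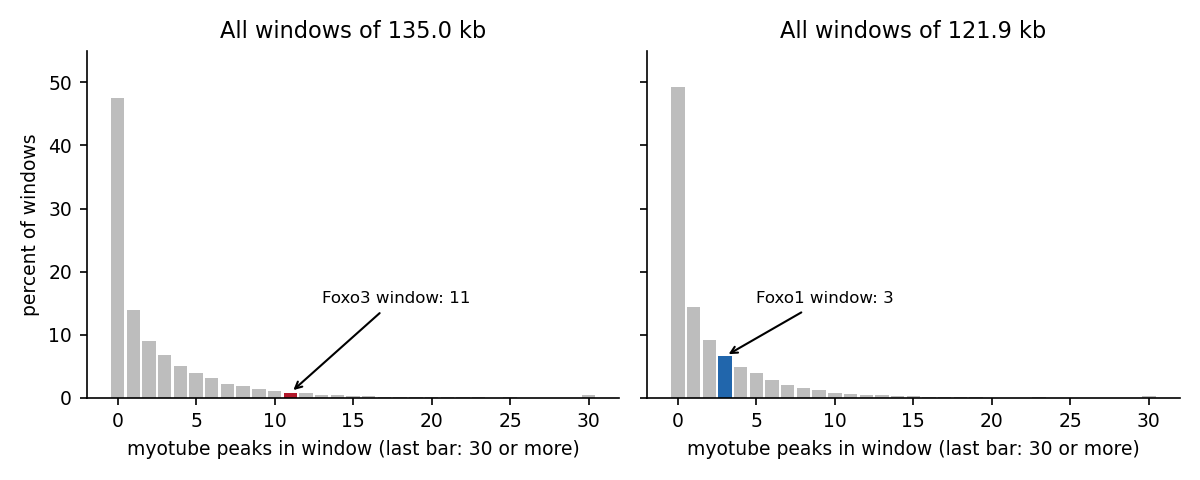
Percent of all consecutive windows (y axis) by the number of myotube peaks in them (x axis, last bar 30 or more), for windows of 135.0 kb (left) and 121.9 kb (right). The coloured bars mark the counts of the Foxo3 window (11) and the Foxo1 window (3). Windows with 0 peaks made up 47.5% and 49.2%, and 4.24% and 27.4% held at least as many as the genes' own windows.

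Of the 11 Foxo3 peaks, 10 lay in the flanks and 1 inside the gene. The flanks and the gene were not tested against each other. The 20 kb upstream held 6 peaks, and 0.501% of all consecutive windows of 20 kb held at least 6. The 20 kb past the end held 4, and 1.45% of windows held at least 4. With summits within 1 kb joined, the flanks held 3 and 2 sites, which 2.35% and 6.69% of windows reached. These windows were not limited to the flanks of genes, and the flanks of other genes were not examined. The 95 kb of the gene held 1, against 1.69 at the list mean, and the Poisson interval of its density (0.0267 to 5.86 per 100 kb) takes in that mean. Both flanks together had 25 peaks per 100 kb (12 to 46.0), 14.1 times the list mean. This ratio counts each close summit by itself and uses the mean of the whole list (1.77 per 100 kb). The chromosome 10 mean was higher (2.57), so the ratio would be smaller against it. At Foxo1 the flanks held 0 peaks upstream and 1 downstream, and the gene held 2 against 1.45 at the list mean. Peak-free stretches of 40.3 kb and 59.3 kb flanked the single peak inside Foxo3, longer than 76.1% and 82.8% of all gaps in the list.

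**Figure D4:**
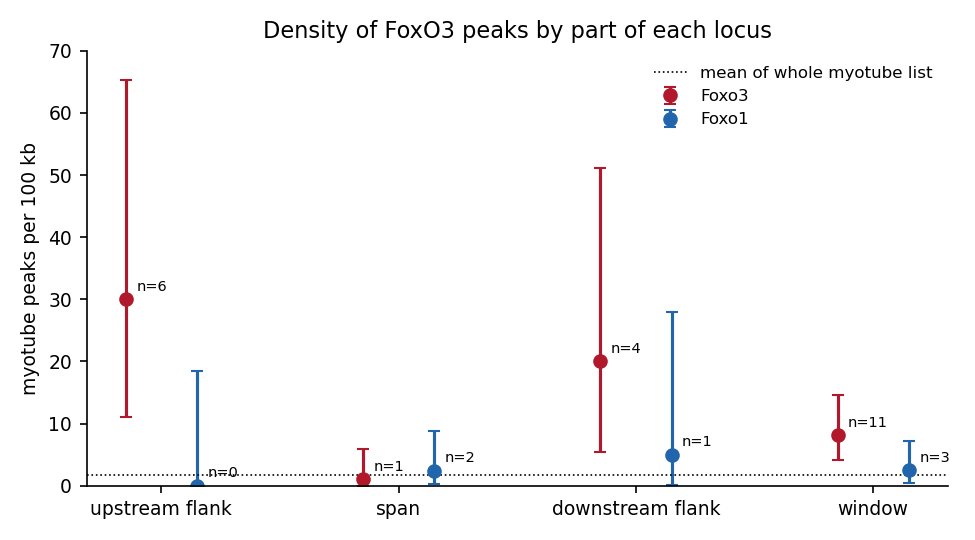
Myotube peaks per 100 kb (y axis) in the upstream flank, the gene span, the downstream flank and the whole window of Foxo3 and Foxo1. Bars are exact Poisson 95% intervals for counting error only, n is the number of peaks and the dotted line is the list mean of 1.77. The intervals of both Foxo3 flanks and of its window lie above the list mean, those of its span and of every part of Foxo1 include it. The intervals take peaks as independent, which close summits may not be, so they may be too narrow.

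Sites at Foxo3 came in close sets. Of its 11 peaks, 9 had another summit within 1 kb, a distance chosen after the positions had been seen, against 22.0% of the myotube list and 0 of the 3 at Foxo1. Within 500 bp it was 6 of 11, against 9.66% of the list. These shares are over the whole list. Peaks in stretches as dense as the Foxo3 flanks were not compared. The 9 made up 3 pairs and the set of 3 far upstream, and the edges of neighbours in a set were 144 to 472 bp apart. Summits this close can share sheared fragments and may not be independent, while the densities and intervals above count each of them. With peaks within 12 kb joined, the Foxo3 peaks fell into 3 groups, of 6 upstream over 17.4 kb, 1 inside and 4 downstream over 8.3 kb. Groups of at least 6 made up 4.46% of the 22217 groups of the list and held 26.6% of its peaks. The Foxo1 peaks fell into a group of 2 and a single peak.

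In myoblasts no FoxO3 peak was listed at either gene, and few would be at the density of that list. The myoblast list would give 0.0262 peaks in the Foxo3 window and 0.0237 in the Foxo1 window at its mean density. Only 2.38% and 2.19% of windows of these lengths held a myoblast peak at all. A count of 0 allows up to 3. The nearest myoblast peaks were 312.3 kb upstream of the Foxo3 start (chr10:42308826-42308901, fold 13.52, 6 reads over 0.44) and 705.8 kb upstream of the Foxo1 start (chr3:51366400-51366475, fold 20.28, 9 reads over 0.44). With no myoblast peak in either window, none of the 14 myotube peaks could overlap one, so their count of 0 adds nothing. Of the whole myotube list, 0.224% overlapped a myoblast peak.

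How the sites compare in fold with the myoblast list depends on the background taken. At its most frequent background, 0.44 reads, the lowest fold listed was 13.52. In myotubes 1 of the 14 sites reached that fold, the peak 3.8 kb past the Foxo3 end at 13.54, against 17.0% of the myotube list. The lowest fold without raised background in the myoblast list was 8.92, which 8 of the 14 reached, against 47.3% of the myotube list. The lowest fold of any myoblast peak was 1.56. The lowest fold of the whole myotube list was 1.73, so every myotube peak exceeded 1.56, the 14 included. The lists were called separately, so these folds are set side by side as a description. Lower FoxO3 occupancy in myoblasts and a weaker or shallower myoblast library cannot be told apart with 1 library per condition.

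The limit of 20 kb mattered at both genes. With 10 kb the Foxo3 window held 5 peaks, and with 50 kb the Foxo1 window held 7. The last peaks inside it were at 19.3 kb past the Foxo1 end and 18.5 kb upstream of the Foxo3 start, given above. The first outside were at chr3:52050463-52050591, 21.7 kb upstream of Foxo1 with a fold of 6.65 and 13 reads over 1.95, and at chr10:41865113-41865253, 36.4 kb past the Foxo3 end with a fold of 8.12 and 21 reads over 2.59. Upstream of Foxo3 the next summit was 201.7 kb from the start, so the 6 upstream peaks ended a long peak-free stretch.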

How the data were processed

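The authors deposited 1 peak list per sample in the narrowPeak layout, per the file headers. The submitters' processing notes name MACS2 2.1.0 and build mm9. The aligner was not given in the sources used here, nor were the control library, duplicate handling and threshold. Each deposited row holds a fold enrichment (a linear ratio), the summit's offset in bp, a −log10 p-value and the matching −log10 q-value. The score deposited by the authors equals that q-value column multiplied by 10 and truncated (0 exceptions). Total depth is unknown.

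The gene spans and the 20 kb flank were given with the question, and the members and lists were chosen with earlier results of these data known. Strand, neighbour names and promoter sequences came from RefSeq (GRCm38.p6). All 2 symbols matched. No mm9 annotation or sequence was used, so exons, peak sequences and the planned list of insulin pathway genes were not examined.

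Pileup and background were recovered as the whole number of reads nearest to each fold and Poisson p-value (tolerance 0.02 in log10). This was found for 501 of 501 and 45457 of 45457 peaks. On simulated pairs, 100% of 2000 whole pileups were recovered with folds of either list, and 3.00% (myoblast) and 0.100% (myotube) of pileups that were not whole passed.

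Consecutive windows were laid on each nuclear chromosome between its outermost peaks in the pooled lists (2562 Mb in all), each counted by summits. Overlap was at least 1 bp. Intervals are exact Poisson for counts, at 95%, and cover counting error only. The limit of 3 given for a count of 0 is the one-sided form, and the two-sided interval reaches 3.69. With 1 sample per group no test was made. Every member is described, by a rule to give all myoblast peaks, promoter peaks (within 1 kb), the 5 strongest and the outermost in full and the rest by range, though here all are named. Alternatives were other flanks, q-value thresholds, promoter distances, joining distances and overlap rules. Shifted windows, joining of close summits, the distance between close summits and the motifs AAACA and GGGCGG were added after seeing the data. Python 3.11.15, numpy 2.4.6, pandas 2.3.3, scipy 1.17.1 and matplotlib 3.10.9 were used.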

Additional observations from a re-analysis of the deposited data

How the results depend on the processing

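Of 65 alternative values for 18 results, 59 stayed within 1.5 times the reported value (for densities, within its Poisson interval) and 6 moved. With a flank of 10 kb the Foxo3 count was 5, and with −log10 q-values under 10 left out it was 4. The Foxo1 count was 7 with a flank of 50 kb and 1 with those peaks left out. Within 2.5 kb of the Foxo3 start there were 2 summits, the pair 1.2 and 1.5 kb upstream, where within 1 kb there were 0. Joined at 5 kb, the Foxo3 peaks made 6 groups. These moves follow from the shorter or longer reach of each setting or from the weak peaks it drops. The Foxo3 density against the list mean ran from 2.45 (flank of 10 kb) to 4.59, a move of over 1.5 times that stayed within its wide interval. With close summits joined it was 2.88. That of Foxo1 ran from 1.11 to 2.17 (flank of 50 kb). The myoblast counts were 0 at both genes under every alternative run. Only the flank of 50 kb and the rule of any overlap with the window could have raised them. Alternatives that only remove peaks cannot move a count of 0, and such cases are among the 59. No paired analysis was possible because there is only 1 library per condition. Few reads stand behind the weaker sites (10 or 11 at 3 of the Foxo3 peaks), which limits what their position can show.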

Other observations

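The strongest FoxO3 peak within 60 kb of either gene lay outside the windows and was picked out after its value had been seen. It was in the myotube list at chr3:52210740-52211317, 56.9 kb past the Foxo1 end, with a width of 578 bp, a fold of 21.56, a −log10 q-value of 32.60 and 37 reads over 1.72. Its fold was at the 95.2nd percentile of the list, above all 14 sites at the genes themselves. On the other side, the peak at chr3:52046516-52046656, 25.6 kb upstream of the Foxo1 start, had a fold of 11.66 and 25 reads over 2.14, also above the 3 sites in the Foxo1 window. Which gene these sites belong to was not examined.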
